A study of Mus musculus with 4 samples.

Results

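The genes of the cytosolic ribosomal proteins were examined for peaks of tagged MafG in mouse liver. They were taken as the mm10 RefSeq protein-coding genes on chromosomes 1 to 19 whose symbol starts with Rpl or Rps, leaving out the Rps6k kinase genes. This gave 87 of 20661 protein-coding genes, 53 named for the large subunit (Rpl, the P-stalk genes included) and 34 for the small subunit (Rps, Rpsa included). By symbol, 73 of the 87 are genes of the standard ribosome. The other 14 are paralogs, retrogene or pseudogene-named copies and Rps19bp1, which encodes a binding protein of Rps19 and not a subunit.

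Tagged protein was immunoprecipitated with its DNA from the livers of C57BL6/J mice and the DNA sequenced (ChIP-seq). The mice had been treated with Ad BLRP MAFG (2 libraries) or Ad BLRP Control (2 libraries); the antibody was directed against the BLRP (Avi) tag in both. The age of the mice is not given in the labels. MafG was overexpressed, so a listed peak need not be occupied by the native protein, and whole liver holds several cell types that the data do not separate. The deposited result was 1 list of 68763 peaks of 200 bp, called on 1 collection of 20406492 BLRP-MafG tags over 1 collection of control tags, an implied 1.72e+07. No value per library was given, so there is no replicate error and no test between animals. Intervals of single peaks are exact 95% intervals and cover counting error only.

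MafG, one of the small MAF proteins, is a leucine zipper factor that has no transactivation domain of its own. It binds as a homodimer or with CNC partners such as NRF2 and BACH1 to Maf recognition elements, which include antioxidant response elements. Ribosomal protein genes are short, very highly transcribed housekeeping genes whose messages begin with a tract of pyrimidines, the TOP motif, through which their translation is controlled by growth signals. Their promoters are mostly known for sites of ETS factors such as GABP, of SP1 and of YY1, and many of their introns hold snoRNA genes. The list records binding and not expression.

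Promoters of 5 genes are shown here because a MafG peak midpoint lay inside each of them and a run of at least 5 pyrimidines spanned the annotated start. Each runs from 250 bases before the start to 30 bases from it, 5′ to 3′ on the strand of the gene, from RefSeq on GRCm38.p6, the assembly of mm10. Capitals mark the pyrimidine run at the start and every match, on either strand, to the motif letters described further on.
Rpl15, chr14:18270957-18271236, minus strand: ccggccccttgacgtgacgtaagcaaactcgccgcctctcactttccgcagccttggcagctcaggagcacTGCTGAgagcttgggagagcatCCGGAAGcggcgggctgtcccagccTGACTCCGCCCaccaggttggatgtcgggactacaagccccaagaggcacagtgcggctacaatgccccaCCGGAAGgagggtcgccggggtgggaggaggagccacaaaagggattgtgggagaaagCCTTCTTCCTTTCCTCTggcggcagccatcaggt
Rplp2, chr7:141447401-141447680, plus strand: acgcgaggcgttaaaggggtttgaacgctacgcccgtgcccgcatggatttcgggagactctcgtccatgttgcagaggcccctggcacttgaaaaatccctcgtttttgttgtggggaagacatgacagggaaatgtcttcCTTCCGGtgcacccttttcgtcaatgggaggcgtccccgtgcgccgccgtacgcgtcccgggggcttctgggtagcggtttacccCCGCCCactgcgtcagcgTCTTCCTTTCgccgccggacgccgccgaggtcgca
Rpl31, chr1:39367601-39367880, plus strand: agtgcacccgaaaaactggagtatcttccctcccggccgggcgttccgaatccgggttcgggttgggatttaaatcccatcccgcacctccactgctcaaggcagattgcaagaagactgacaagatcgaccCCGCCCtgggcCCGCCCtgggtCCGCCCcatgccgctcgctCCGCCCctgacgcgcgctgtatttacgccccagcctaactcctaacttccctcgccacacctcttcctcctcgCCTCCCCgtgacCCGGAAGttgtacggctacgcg
Rps6, chr4:86857338-86857617, minus strand: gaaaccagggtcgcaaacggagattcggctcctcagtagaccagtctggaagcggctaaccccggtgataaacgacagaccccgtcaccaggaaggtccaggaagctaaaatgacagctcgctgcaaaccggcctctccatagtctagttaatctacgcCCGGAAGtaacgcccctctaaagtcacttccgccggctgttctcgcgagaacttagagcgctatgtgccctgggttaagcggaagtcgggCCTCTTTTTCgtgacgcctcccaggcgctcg
Rps15a, chr7:118116118-118116397, minus strand: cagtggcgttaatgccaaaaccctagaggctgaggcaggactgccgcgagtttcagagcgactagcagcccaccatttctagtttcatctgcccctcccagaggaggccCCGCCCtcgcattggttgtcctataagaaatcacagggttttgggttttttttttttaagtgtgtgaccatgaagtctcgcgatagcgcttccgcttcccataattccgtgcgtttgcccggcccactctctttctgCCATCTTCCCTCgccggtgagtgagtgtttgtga

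A MafG peak lay close to a minority of the ribosomal protein genes, and most of these peaks were low. Of the 87 genes, 31 (35.6%) had a peak midpoint within 1 kb of either gene end, against 25.4% of all protein-coding genes on the same chromosomes. Within 10 kb, 67 (77.0%) had one, against 71.2%. The 10 kb share stood near that background and is not read as a result about these genes. No test over genes was made, so neither share is called different from the background.

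The ribosomal protein genes are short, with a median length of 3180 bp against 17500 bp for all protein-coding genes. Among the 7342 protein-coding genes of up to 10 kb, 20.3% had a peak within 1 kb and 56.7% within 10 kb. The 85 ribosomal protein genes of that length had shares of 34.1% (29 genes) and 76.5% (65 genes). Both kinds of short gene had a median of 6 ends of other genes within 50 kb, against 4 for all genes. The distance from a gene to its nearest peak had a median of 2870 bp for ribosomal protein genes, 4010 bp for all genes and 7420 bp for genes of up to 10 kb.

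The windows did not divide the genes at a crowded point. Just inside 1 kb stood Rpl24 and Rpl13a, with nearest peaks 846 and 847 bp away, and just outside stood Rps15 at 1093 bp and Rpl3l at 1185 bp. Just inside 10 kb stood Rpl31-ps12 at 8271 bp and Rps2 at 9334 bp, and just outside stood Rpl32l at 11158 bp and Rps14 at 11442 bp. Within 50 kb all 87 had a peak, as did 94.9% of all genes.

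A peak within 1 kb was listed for 21 of 53 large subunit genes (39.6%) and 10 of 34 small subunit genes (29.4%). The difference was 10.2 percentage points, with an interval of -12.1 to 30.5. That interval treats the genes as independent draws, although they are the whole set scored on 1 peak list. It therefore decides nothing, and the shares are not called different. At 10 kb the shares were nearly equal, at 41 of 53 (77.4%) and 26 of 34 (76.5%). The large subunit genes with a peak within 1 kb were Rpl4, Rpl5, Rpl6, Rpl7, Rpl11, Rpl13a, Rpl15, Rpl21, Rpl24, Rpl27, Rpl28, Rpl29, Rpl30, Rpl31, Rpl32, Rpl35a, Rpl36, Rpl36al, Rpl37, Rplp0 and Rplp2. Those of the small subunit included Rps3a1, Rps6, Rps12, Rps15a, Rps19bp1, Rps21, Rps23rg1 and Rps27a. The difference at 1 kb was 2.66 points when a peak counted only where a ribosomal protein gene was the nearest protein-coding gene, and -1.05 when the lower bound of the ratio to control had to exceed 10. It was 15.4 (-8.67 to 36.9) without Rps19bp1, paralogs and copies, and 19.8 (-4.75 to 41.2) over the 73 genes of the standard ribosome, a choice made after seeing the data. These intervals also treat the genes as independent draws and decide nothing about the subunits.

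**Figure D1:**
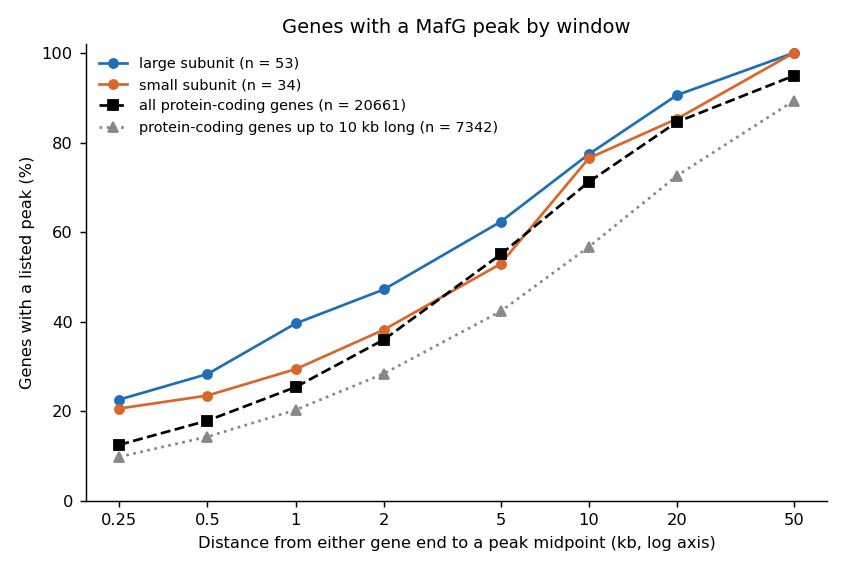
Share of genes (vertical axis, percent) with a listed peak midpoint within a given distance of either gene end (horizontal axis, kb, log scale), for large and small subunit genes, all protein-coding genes and protein-coding genes of up to 10 kb. At 1 kb the large subunit stands at 39.6% and the small subunit at 29.4%, above the 25.4% of all genes; at 10 kb the subunits meet at 77.4% and 76.5%.

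Peak height at these genes is given as the normalized tag count, the BLRP-MafG tags at the peak scaled by the authors to 10000000 tags in total. The 35 distinct peaks within 1 kb had a median of 9.8 (quartiles 7.59 and 12.7), against 10.8 (quartiles 7.84 and 16.7) for the 5211 peaks within 1 kb of any protein-coding gene. The control held no tag at 18 of the 35 (51.4%), against 43.1% of the 5211, and at most 2 tags at any of the 35. In the authors' deposited table their median fold over the surrounding 10 kb was 6.22, against 8.78 for the 5211. Only 2 of the 35 (5.71%), at Rps15a and Rpl35a, had a lower bound of the ratio to control above 10, against 7.94% of the 5211.

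Per gene, the highest peak within 10 kb had a median of 14.2 (quartiles 9.8 and 27.9) over the 67 genes with one, against 17.2 (quartiles 10.3 and 33.3) over all genes with one. The median was 13.2 for the 41 large subunit genes and 15.9 for the 26 small subunit genes, and their quartiles (9.8 to 24 and 10.2 to 35.5) overlapped. Peaks of 50 or more within 10 kb were found for 5 of the 87 genes (5.75%), against 11.0% of all protein-coding genes. Length narrows this contrast: of protein-coding genes of up to 10 kb, 6.93% had such a peak, against 4.71% (4 of 85) of the ribosomal protein genes of that length. The median highest count was 15.2 for the former and 13.7 for the latter. Of the 5 genes, Rpl31 was the only one of the large subunit (1 of 53, 1.89%). Rps15a, Rps7, Rpsa and Rps6 belong to the small subunit (4 of 34, 11.8%). The small subunit share stood near the 11.0% of all protein-coding genes, and the large subunit share below it. The subunits were not compared by a test.

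**Figure D2:**
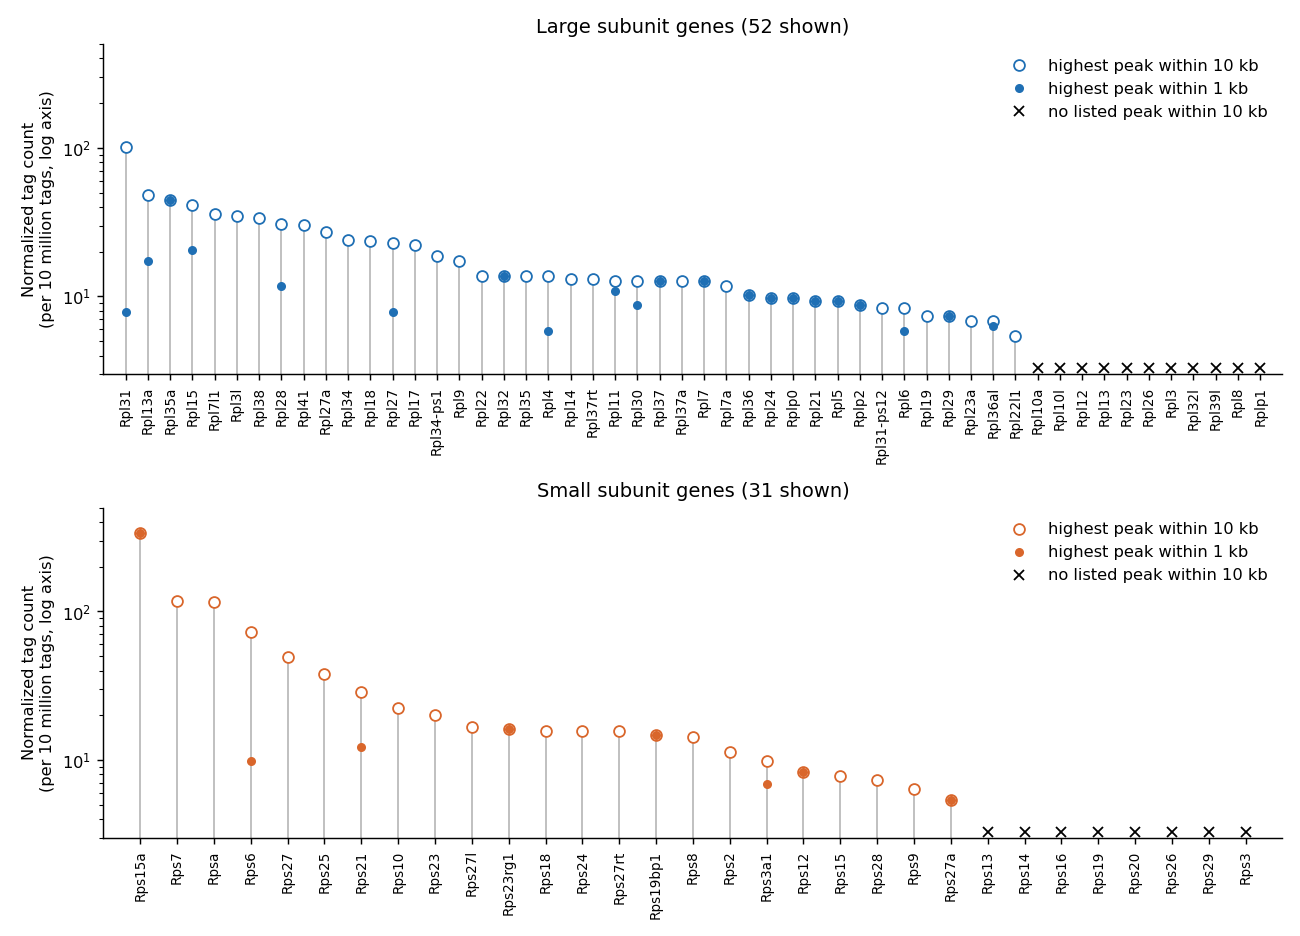
Highest normalized tag count (vertical axis, per 10000000 tags, log scale) within 10 kb (open circles) and within 1 kb (filled circles) of the ribosomal protein genes shown, in panels for the large and the small subunit; crosses mark genes with no listed peak within 10 kb and have no height. Rps15a stands apart at 336.2, and most filled circles lie near 10.

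The tallest peak lay inside Rps15a, which encodes a protein of the small subunit, 510 bp from its 3′ end at chr7:118104784-118104984. Its normalized tag count was 336.2 (311 to 362), from 686 tags, with 0 control tags. The ratio to control was 193 against a floor of 3 control tags, with an exact lower limit of 156. No other gene has its end closer to this peak. Rps15a had 3 more peaks within 10 kb. One of 81.3 (69.4 to 94.7) lay 9281 bp beyond the 3′ end, one of 14.2 lay 2451 bp upstream and 292 bp from an end of Arl6ip1, and one of 6.37 (3.39 to 10.9) lay 73 bp upstream of its start, in the promoter printed above. The intervals of the peak at the 3′ end and the peak at the promoter did not overlap. Rps15a is described for its tallest peak, so no pattern of position is read from this.

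Rpl35a, a large subunit gene mutated in some families with Diamond-Blackfan anaemia, held the next highest peak within 1 kb. It lay inside the gene, 634 bp from the 3′ end, at chr16:33059455-33059655, with a tag count of 44.6 (35.9 to 54.8). There were 0 control tags, a ratio of 25.6 against the floor and an exact lower limit of 20.4. Rps15a and Rpl35a were thus the 2 genes with a peak above 25 within 1 kb, and both carried it nearer to the 3′ than to the 5′ end.

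The other peaks described here within 1 kb were lower, from 5.39 to 20.6, and the intervals of neighbours in this order overlapped. Rpl15 had a peak of 20.6 (14.8 to 27.8) 199 bp upstream of its start at chr14:18271085-18271285, with 0 control tags (ratio 11.8 against the floor, lower limit 9.19). That position is 49 bp from an end of Nkiras1 and inside that gene. Rpl13a, whose product is also known outside the ribosome as part of an interferon-induced translational silencing complex, had one of 17.2 (11.9 to 23.9) 847 bp upstream at chr7:45129492-45129692, without control tags (ratio 9.84 against the floor, lower limit 7.59).

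Rps23rg1 and Rps19bp1, also in this range, do not encode standard subunits. The first, a retrogene of Rps23, held a peak of 16.2 (11.1 to 22.7) 836 bp inside its 5′ end at chr8:3568734-3568934, with 2 control tags; the ratio was 13.9 (3.56 to 120) as counted and 9.28 against the floor. The second had one of 14.7 (9.92 to 21) 71 bp upstream of its start at chr15:80264277-80264477, with a single control tag; the ratio was 25.3 (4.21 to 1030) as counted and 8.44 against the floor.

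Among large subunit genes, Rpl32 had one of 13.7 (9.12 to 19.8) 297 bp beyond a gene end at chr6:115808940-115809140, with 0 control tags (ratio 7.87 against the floor, lower limit 5.99). Rpl37 and Rpl7 each had one of 12.7 (8.32 to 18.7). That of Rpl37 lay 164 bp upstream of its start at chr15:5116349-5116549 without control tags (ratio 7.31 against the floor, lower limit 5.53) and 113 bp from an end of Card6. That of Rpl7 lay 548 bp beyond a gene end at chr1:16104881-16105081, with 2 control tags; the ratio was 11 (2.75 to 95.3) as counted and 7.31 against the floor, as for Rpl37. Rps21 had one of 12.3 (7.93 to 18.1) 749 bp upstream at chr2:180256530-180256730, with 2 control tags; the ratio was 10.5 (2.63 to 91.9) as counted and 7.03 against the floor. Rpl28 had one of 11.8 (7.54 to 17.5) 496 bp beyond its 3′ end at chr7:4794943-4795143, with 2 control tags; the ratio was 10.1 (2.51 to 88.4) as counted and 6.75 against the floor. With so few tags, the height of any one of these peaks is known only roughly.

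Of the 6 peaks of 50 or more from 1 to 10 kb away, 5 stood at small subunit genes. By gene, 11.8% of the small subunit had a peak of 50 or more within 10 kb, near the 11.0% of all protein-coding genes. Rps7, another gene mutated in Diamond-Blackfan anaemia, had a peak of 117.1 (103 to 133) 2181 bp beyond its 3′ end at chr12:28628566-28628766. With 1 control tag, its ratio was 202 (35.8 to 8000) as counted and 67.2 against the floor. Rpsa, which encodes a small subunit protein also described as a laminin receptor, had one of 115.6 (101 to 131) 1898 bp beyond its 3′ end at chr9:120134167-120134367, with 5 control tags and a ratio of 39.8 (16.8 to 124). A further peak of 79.4 (67.6 to 92.6) lay inside Rpsa, 1480 bp from its 5′ end, so that both of its peaks exceeded 50.

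Rps6, the small subunit protein phosphorylated by the S6 kinases, had one of 73 (61.8 to 85.7) 5129 bp upstream at chr4:86862396-86862596, with 0 control tags (ratio 41.9 against the floor, lower limit 33.7). Its promoter carried a peak of 7.84 (4.48 to 12.7) and its 3′ end one of 9.8, both lower than the distant peak. Rpl31, of the large subunit, had one of 101.9 (88.5 to 117) 4353 bp beyond its 3′ end at chr1:39376164-39376364. The control held 3 tags, a ratio of 58.5 (19.7 to 286). This position is inside Tbc1d8, although the nearest gene end is that of Rpl31. The peak at the Rpl31 promoter, of 7.84 (4.48 to 12.7), was again lower. Rps6 and Rpl31 are described for their highest peaks, so lower peaks elsewhere at them decide nothing about position.

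The remaining peaks in this range often lay by other genes. A peak of 49 (39.9 to 59.6) 8980 bp upstream of Rps27 at chr3:90222528-90222728, with 5 control tags and a ratio of 16.9 (6.99 to 53.1), was inside Rab13. One of 48.5 (39.4 to 59.1) at chr7:45117167-45117367, with 3 control tags and a ratio of 27.8 (9.25 to 137), lay 8296 bp beyond the 3′ end of Rpl13a and nearer to another gene. One of 37.7 (29.8 to 47.2) 9546 bp beyond the 3′ end of Rps25 at chr9:44419852-44420052, with a single control tag (ratio 65, 11.3 to 2600, and 21.7 against the floor), was 1868 bp from Ccdc84. One of 35.8 (28 to 45) 8206 bp upstream of Rpl7l1, a paralog of Rpl7, at chr17:46790762-46790962, with 5 control tags and a ratio of 12.3 (5.04 to 39.1), was 7254 bp from Bicral.

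**Figure D3:**
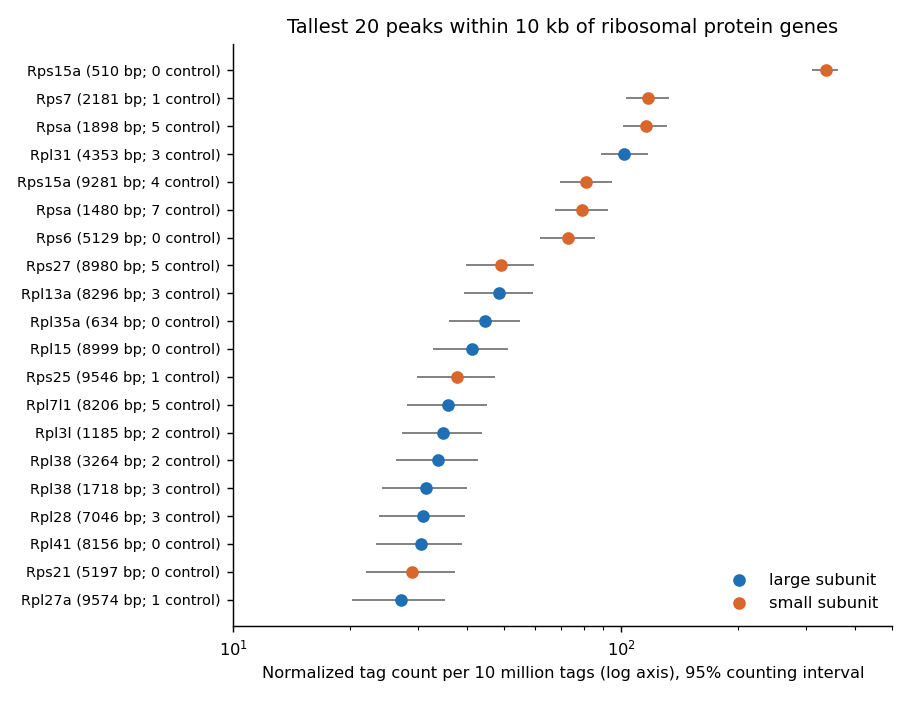
The 20 tallest peaks within 10 kb of a ribosomal protein gene, by normalized tag count (horizontal axis, per 10000000 tags, log scale) with exact 95% counting intervals; each label gives a ribosomal protein gene within 10 kb, the distance to its nearer end and the control tags. The interval of Rps15a at 336.2 clears all others.

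Many of the peaks in the 10 kb window lay nearer to another gene. Of 122 distinct peaks within 10 kb, 68 (55.7%) had a ribosomal protein gene as the nearest protein-coding gene and 54 lay nearer to another gene. Within 1 kb the split was 30 and 5. Of the 125 pairs of a ribosomal protein gene and a peak within 10 kb, 54.4% had no other gene end closer to the peak, against 58.9% of the pairs over genes of up to 10 kb and 71.6% over all genes. Counting only peaks nearest to a ribosomal protein gene left 49 of the 87 genes (56.3%) with a peak at 10 kb and 27 (31.0%) at 1 kb. A rule chosen after seeing the data counted a peak only for the gene nearest to it, in all genes alike. At 10 kb it left 48 of the 87 (55.2%), against 59.5% of all genes and 40.7% of those of up to 10 kb, so that the share stood below that of all genes and above that of short genes. At 1 kb it left 27 (31.0%), against 22.8% and 17.5%. Which gene a peak belongs to was not tested.

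Another 20 genes had no listed peak within 10 kb. These included Rpl3, Rpl8, Rpl10a, Rpl10l, Rpl12, Rpl13, Rpl23, Rpl26, Rpl32l, Rpl39l, Rplp1, Rps3, Rps13, Rps14, Rps16, Rps19, Rps20, Rps26 and Rps29. The group includes Rps19, the gene most often mutated in Diamond-Blackfan anaemia, whose nearest peak was 33556 bp away. The longest distance was 44353 bp, for Rpl39l, a paralog of Rpl39. Signal below the limits of the peak caller is not listed, so these genes may hold weaker signal. A further 36 genes had peaks only from 1 to 10 kb.

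Some proteins that act together in the ribosome are described here although they were chosen after their values were seen. Rpl5 and Rpl11, whose products bind the 5S ribosomal RNA and also MDM2, both had a low peak at the start, of 9.31 (5.61 to 14.5) and 10.8 (6.76 to 16.3). In the P-stalk, which recruits translation factors, Rplp0 and Rplp2 had low peaks at the start, of 9.8 (5.99 to 15.1) and 8.82 (5.23 to 13.9), while Rplp1 had none within 10 kb and its nearest lay 18484 bp away. Rpl36, Rps6 and Rps15a each had 2 peaks within 1 kb.

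The strand was known for 66 of the 87 genes, those matched in the RefSeq promoter table. Of 24 peaks within 1 kb of these, 18 (75%) lay nearer to the 5′ end, close to the 74.1% of 4817 gene-peak pairs over all genes. All 18 were low, from 6.37 to 20.6 with a median of 9.55, and 14 of them were upstream of the gene. Over all genes the median at the 5′ end was 10.8. A peak within 250 bp of the 5′ end was found for 14 of the 66 (21.2%), against 11.2% of 16456 protein-coding genes with a known strand. By subunit the counts were 9 of 40 (22.5%) and 5 of 26 (19.2%). Peaks of 50 or more lay elsewhere, as the plot of peak position shows.

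**Figure D4:**
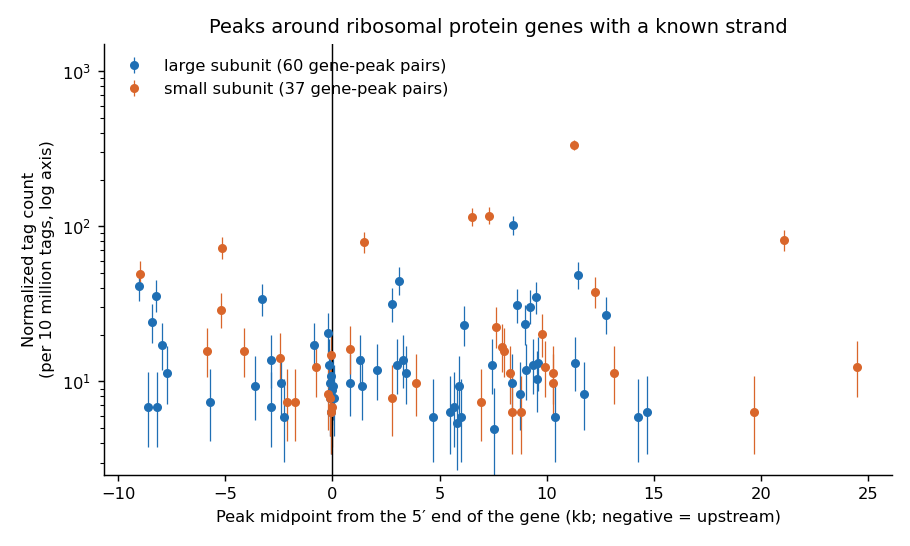
Normalized tag count (vertical axis, per 10000000 tags, log scale, exact 95% counting intervals) against the position of the peak midpoint from the 5′ end of the gene (horizontal axis, kb, negative upstream) for ribosomal protein genes with a known strand. Peaks crowd at the start with counts of 20.6 or lower, while the tall ones, up to 336.2, lie from 1480 bp to over 20 kb downstream of a start or 5129 bp upstream.

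Promoter windows of 300 bases, from 250 before to 50 after the start, were searched on both strands in the 66 genes and in 16456 protein-coding genes. The letters CCGGAAG of ETS factors were in 24 of 66 (36.4%), against 12.3% of all windows. AAGATGG of YY1 was in 10 (15.2%, against 6.4%) and GGGCGG of SP1 in 37 (56.1%, against 47.3%), while TATAAA, the TATA box, was in 7 (10.6%, against 13.5%). The start base was a C in 24 (36.4%, against 13.8%), and a run of at least 5 pyrimidines spanned the start in 20 (30.3%, against 8.68%). The median GC content was 57.7% against 56.7%.

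For the letters that MafG and its partners are known to bind, the picture was mixed. The core of the antioxidant response element, TGACNNNGC, was in 14 of the 66 windows (21.2%), against 13.2% of all. A part of the Maf recognition element, TGCTGA, was in 5 (7.58%), against 17.7%. TGACTCA of AP-1 was in 1 (1.52%), against 4.59%; where GC follows it, it also matches TGACNNNGC. Of 14 windows of genes with a peak within 250 bp of the gene's 5′ end, 3 held TGACNNNGC and 1 held TGCTGA. Over all genes with such a peak the shares were 17.7% and 21.5%. The start used to place the window was that gene end in 56 of the 66 genes and in 9840 of the 16456. A window therefore need not hold the peak. A match is a description of the letters and not a bound site.

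**Figure D5:**
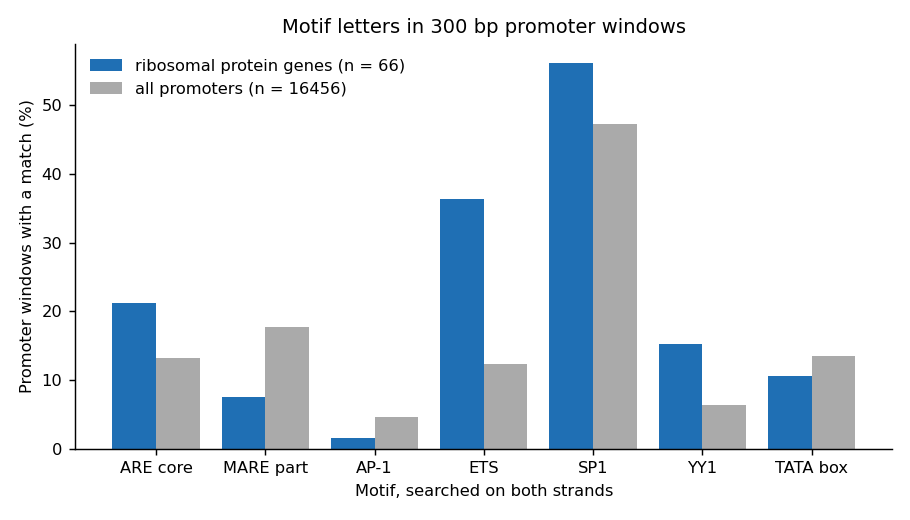
Share of promoter windows with at least 1 match (vertical axis, percent) for each motif (horizontal axis; ARE core is TGACNNNGC and MARE part is TGCTGA), in 66 ribosomal protein genes and in 16456 protein-coding genes. ETS letters stand at 36.4% against 12.3%, and MARE part letters at 7.58% against 17.7%.

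In the printed Rpl15 promoter, TGCTGA began at position -179 from the start, with its centre 23 bp from the peak midpoint, and a TGACNNNGC match lay 71 bp from it, where it overlaps the letters of SP1. The Rpl31 peak was centred on a row of 4 SP1 matches, the nearest 2 bp from its midpoint. The Rps6 peak had ETS letters 44 bp away and the Rplp2 peak SP1 letters 11 bp away. The searched window of Rps6 also held TGACNNNGC, 166 bp from the peak midpoint and just beyond the printed stretch. The Rps15a promoter held YY1 letters across its start, 72 bp from its low peak, and neither TGACNNNGC nor TGCTGA.

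snoRNA genes lay inside 28 of the 87 genes (32.2%, 57 snoRNA genes), against 1.72% of all protein-coding genes. The hosts had a peak within 1 kb in 11 cases (39.3%) and within 10 kb in 19 (67.9%). The 59 genes without a snoRNA had one in 20 (33.9%) and 48 (81.4%). Over the 327 other protein-coding genes with a snoRNA, which are far longer (median 71900 bp), the shares were 34.9% and 83.5%.

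Ribosomal protein genes have many processed pseudogenes, and reads from near-identical copies can be split or lost in mapping; how such reads were treated is not stated in the labels or the file header. The table names 305 pseudogene copies for 59 of the 87 genes. Of 269 such copies on chromosomes 1 to 19, 9 (3.35%) held a peak midpoint, against 6.08% of 9496 pseudogenes of any kind. The groups were not matched for length, on which such a share depends, and loss of reads in mapping was not tested. Rps15a has 8 named copies, and Rps12 and Rpl31 have 23 each.

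Other genes of the translation machinery had shares of the same order. Among 78 mitochondrial ribosomal protein genes, 32 (41.0%) had a peak within 1 kb and 61 (78.2%) within 10 kb, with a median highest tag count of 15.7. Translation factors were taken by symbols starting Eif or Eef, a rule that also admits genes other than initiation and elongation factors. Among these 69 genes the counts were 28 (40.6%) and 51 (73.9%), with a median of 16.2. Among 43 ribosome assembly genes, Eif6 belonging to both lists, they were 16 (37.2%) and 31 (72.1%), with a median of 19.1. Of the ribosomal protein genes outside the chosen set, Fau and Rack1 had peaks of 14.2 and 21.6 within 10 kb and none within 1 kb. On chromosome X, Rpl10 had one of 11.8 within 1 kb, and Rpl36a, Rpl39 and Rps4x had none within 10 kb.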

How the data were processed

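ChIP-seq was analysed from 1 deposited peak list. Per the submitters' processing notes, Bowtie2, HOMER and build mm10 were used, with no version recorded. Per the file headers, HOMER findPeaks required a 10-fold excess and a Poisson p of 1e-06 over control, and a 4-fold excess and p of 0.0001 over the surrounding 10 kb, with peaks at least 400 bp apart. The deposited signal columns are BLRP-MafG tags scaled by the authors to 10000000 or to the control total, and unscaled control tags, with 0.5 written for 0. The deposited fold values are linear ratios, the deposited p-values are the caller's Poisson p-values, and the deposited score was not used.

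Tag counts were multiplied back to whole tags (within 0.1 of a whole number) for exact 95% Poisson and conditional binomial intervals. With fewer than 3 control tags the ratio was taken against a floor of 3, and with 1 or 2 also as counted. Intervals of shares, medians and their differences treat the genes as independent draws. Those of differences between shares combine the exact intervals of both. Distances run from the peak midpoint to either end of genes in an NCBI RefSeq table of GRCm38.p6. Python 3.11.15 and scipy 1.17.1 were used, and the assignment was tested on simulated data.

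The genes and lists were chosen with earlier results of these data known, so counts and medians are set beside those of all protein-coding genes, without a test. Full values are given for the 12 genes with the highest peak within 1 kb and the 8 others with the highest within 10 kb. Genes with a peak within 1 kb or without one within 10 kb are named. Some genes that this rule covers are not reported by name here, in text or figures, but stay in all counts. Alternatives covered the window, peak edge, peak threshold, neighbouring genes and the choice of genes.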

Additional observations from a re-analysis of the deposited data

How the results depend on the processing

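No paired analysis was possible because the peak list holds no value per library. For the same reason no library could be left out. The share with a peak within 1 kb (35.6%) fell to 19.5% with a deposited fold over control of at least 20, where all genes stood at 15.5%, and to 2.3% with a lower bound of the ratio to control above 10, where all genes stood at 2.2%. The share within 10 kb (77.0%) was 58.6% in a window of 5 kb (all genes 55.0%) and 88.5% in 20 kb (all genes 84.6%). It was 56.3% with only peaks nearest to a ribosomal protein gene, and 55.2% with only peaks nearest to the gene itself, chosen after seeing the data (all genes 59.5%). It was 59.8% with a fold of 20 (all genes 56.1%) and 11.5% with the stricter bound (all genes 16.3%). The median highest tag count (14.2) was 21.1 in a window of 20 kb and 58.8 with the stricter bound. That bound left 2 genes at 1 kb and 10 at 10 kb, and it turned the difference between large and small subunit from 10.2 to -1.05 percentage points at 1 kb and from 0.888 to -10.1 at 10 kb. It moved the difference of the medians from -2.75 to -51.4. The other values of these 6 results, 45 of 58, stayed inside the 95% interval of the main value. The 2 differences that changed sign, -1.05 and -10.1, also lay inside it. These intervals treat the genes as independent draws. Counting error limits single peaks: 28 of the 35 peaks within 1 kb of these genes rest on fewer than 30 tags. Low counts were not particular to these genes. The median normalized tag count within 1 kb was 9.8 here and 10.8 for any protein-coding gene.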
